A study of Mus musculus with 26 samples.

Results

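Gene expression in mouse embryonic stem cell-like cells without Prdm14 (KO) was compared with that in wild-type embryonic stem cells (WT), both grown in 2i medium. The comparison rests on 4 of the 26 arrays of the series, 2 labelled Prdm14(-/-) in 2i and 2 labelled Prdm14(+/+) in 2i, chosen by those labels alone, and it covers all 18193 genes that the probe sets name. The KO cells carry the genotype Prdm14 knockout and the WT cells no genetic modification. Both are male C57BL/6 lines on mouse embryonic fibroblast feeders. In 2i the cells grew in N2B27 with PD0325901 (0.4 uM), which inhibits MEK, CHIR99021 (3 uM), which inhibits GSK3, and LIF (1000 units per ml). The other arrays are used only for comparison. They are knockout cells with the pPyCAG-AGP14 transgene (a tagged Prdm14) in 2i, and the KO and WT cells after 2 days in 1 of 3 serum media: with LIF, without LIF, or with both LIF and 0.4 uM PD0325901. AGP14 cells in the first and second of these media and epiblast-like cells of days 2 and 3 entered the fit, the means over all 26 arrays and the array checks. The labels give neither the number of clones per genotype nor whether replicates were separate cultures, and each p-value below reflects spread among the arrays only, part of which may be technical.

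PRDM14 is a PR-domain zinc finger protein of the early embryo, of primordial germ cells and of embryonic stem cells. It recruits polycomb repressive complex 2 to its targets, and it is known for holding down the FGF receptor pathway and the de novo DNA methyltransferases. In 2i medium, blocking MEK and GSK3 keeps stem cells in a state resembling the naive inner cell mass, with little DNA methylation. Stem cells in serum carry more DNA methylation and more active ERK, the kinase that FGF receptors switch on through MEK. Comparing the genotypes in 2i asks what the loss of Prdm14 does when MEK is already blocked.

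All levels below are the deposited log-scale values, base 2 inferred, and differences are KO minus WT in log2 units with their standard error (SE). Pairs of values are for replicate 1 and then replicate 2. A gene rose or fell where limma's test gave an adjusted p under 0.05 over all 18193 genes. Mean levels of the 8 pluripotency markers were 12.10 and 12.08 on the KO arrays, against 11.96 and 11.97 on the WT arrays, and 2 of them, Utf1 and Tdgf1, were called higher in KO. Of 4 epiblast-like markers Dnmt3b was called higher in KO, and Fgf5 was below 4 on all 4 arrays. The 19 measured feeder fibroblast markers averaged 8.77 and 8.84 in KO and 8.82 and 8.85 in WT, and 0 of them were called. Markers of extraembryonic endoderm, mesoderm and neuroectoderm averaged under 5.3 on all 4 arrays, with Foxa2, Mixl1 and Hes5 below 4 throughout. The 4 trophoblast markers averaged 3.96 and 4.54 in KO against 3.39 and 3.82 in WT, and of these Cdx2 and Gata3 were called higher in KO. Without WT replicate 1 neither was called, and the Cdx2 difference was 1.015 there against 2.345 on all 4 arrays. Cdx2 also lost its call without KO replicate 1 or KO replicate 2, and Gata3 without KO replicate 2 or WT replicate 2. No marker was at 0 on all 4 arrays. The labelling spike-in lys read 13.4 to 13.6 on these 4 arrays and on those with MEK inhibitor, and 6.77 to 7.38 on the AGP14, serum and no-LIF arrays. The labels name no batch.

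The library labelled WT replicate 1 stood apart on chromosomes 11 and 16, as did the WT replicate 1 arrays of the other media. Array shifts were the median over genes with a mean level of at least 6 of the level minus the gene's mean over 26 arrays, less the same on the other chromosomes. The 4 WT replicate 1 arrays had shifts of 0.225 to 0.321 on chromosome 11, against -0.092 to 0.126 on the 18 other stem cell arrays. On chromosome 16 the shifts were 0.275 to 0.327, against -0.199 to 0.022. Results that rest on this library are given with and without it where both were counted. Arrays of the same line and number also deviated together: the replicate 1 minus replicate 2 differences correlated across genes at 0.468 to 0.739 between media in KO and at 0.482 to 0.779 in WT, and at -0.106 to 0.041 between KO and WT. The 13 residual degrees of freedom of the model therefore stand for fewer independent cultures.

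The Prdm14 transcript itself was higher on the arrays labelled KO. Its single probe set read 11.33 and 11.24 in KO and 8.95 and 9.40 in WT, a difference of 2.11 (SE 0.41, adjusted p = 0.00268 by limma). The groups did not overlap, which holds for every called gene. Which exons were deleted is not stated in the labels, so this probe set does not check them, and every direction below rests on the labels. In serum with MEK inhibitor the probe set read 10.60 and 10.87 in KO against 9.04 and 9.48 in WT (adjusted p = 0.0491 for Prdm14 there). In serum with LIF its difference was -0.69 and without LIF -1.09, neither past the test. The difference in 2i exceeded that in serum by 2.81 (adjusted p = 0.0138 by limma) and that without LIF by 3.21 (adjusted p = 0.00422 by limma). AGP14 cells in 2i read 9.30 and 9.11.

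Of the 18193 genes, 661 rose (3.63%) and 1004 fell (5.52%) in KO against WT. For each of these 1665 genes both KO values lay on the same side of both WT values. How often that holds over all genes was not counted, so it adds no support to the calls. Counts of list members below are to be read against the shares of 3.63% and 5.52%. Most differences were small: the median rise was 0.58 and the median fall -0.65, against -0.03 over all genes. By 1 log2 unit or more, 141 genes rose and 294 fell; by 3 or more, 3 rose and 18 fell. After quantile normalization 852 rose and 859 fell, so that the rising share of the calls was 39.7% as deposited and 49.8% on that scale. The count was 727 without WT replicate 1, 1008 without KO replicate 1, and 25 where only these 4 arrays were fitted. With the RNA of a whole culture on each array, fewer cells of a kind and less RNA per cell cannot be told apart.

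**Figure D1:**
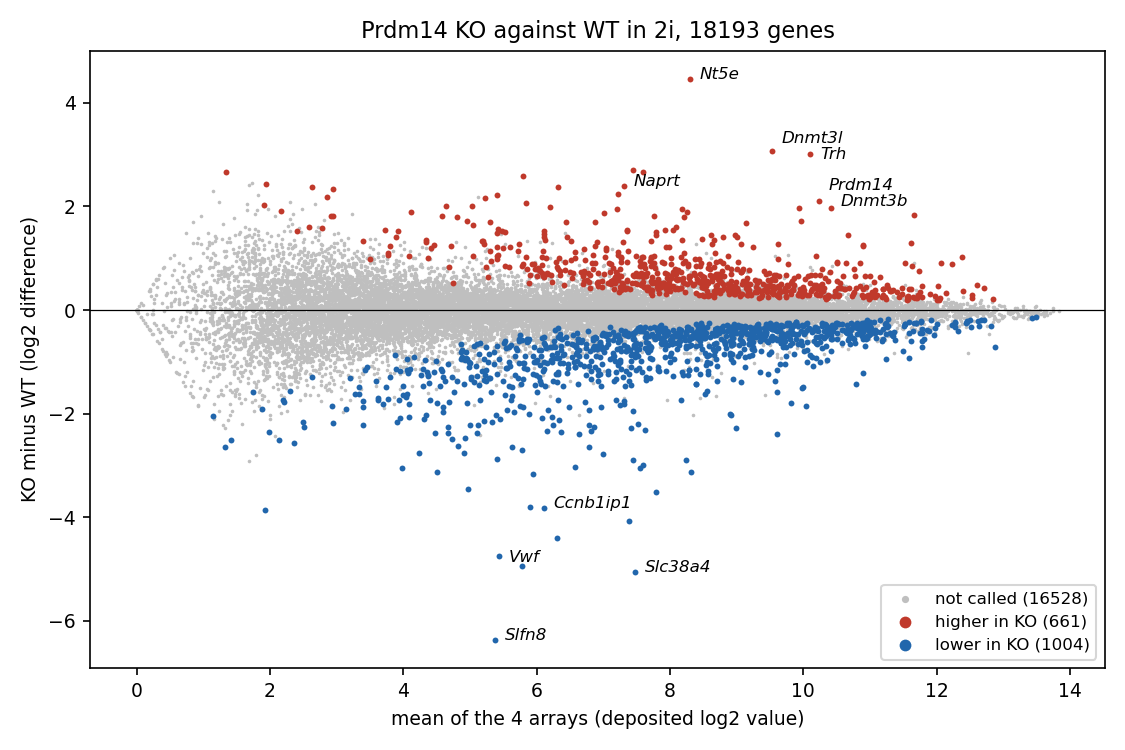
Log2 difference KO minus WT in 2i (y axis) against the mean of the 4 arrays (x axis, deposited log2 value), 1 point per gene for 18193 genes. Red points are the 661 genes higher in KO, blue points the 1004 lower in KO and grey points those not called. The most negative point is Slfn8 at -6.37 and the most positive called point Nt5e at 4.46.

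The falls included genes near the low end of the scale in KO that were clearly expressed in WT. Slfn8, a Schlafen family gene of chromosome 11, read 1.91 and 2.48 in KO against 8.73 and 8.39 in WT. Its difference of -6.37 (SE 0.33, adjusted p = 1.02e-09 by limma) was far beyond the shift of its chromosome (-0.18). Slc38a4, a paternally expressed imprinted amino acid transporter, read 4.17 and 5.72 in KO against 10.22 and 9.77 in WT (-5.05, SE 0.40, adjusted p = 2.57e-07 by limma). For both genes the KO and WT arrays lay far apart. Ccnb1ip1, a ubiquitin ligase needed for meiotic crossing over, read 4.34 and 4.04 in KO against 8.05 and 7.99 in WT (-3.83, SE 0.20, adjusted p = 1.02e-09 by limma).

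Other large falls were of genes known from varied tissues. Vwf, the von Willebrand factor of endothelium and platelets, read 2.54 and 3.57 in KO against 7.67 and 7.95 in WT. Fermt3, the kindlin of blood cells, read 4.40 and 4.34 in KO against 7.58 and 7.48 in WT. Both fell (differences -4.75 and -3.16). Rhox5, an X-linked homeobox gene of the reproductive tract and placenta, read 5.89 and 6.18 in KO against 10.48 and 8.63 in WT (-3.52, adjusted p = 0.000517 by limma). The WT replicates of Rhox5 themselves differed by more than those of the genes above. Serpinb6c (-4.08), Trpm1, a melanocyte and retina cation channel (-3.12), Gm21283 (-4.93) and 2300002M23Rik (-4.39) completed the falls that no single array decided. Cela2a, a pancreatic elastase, was listed at 0 on both KO arrays and at 4.91 and 2.79 on the WT arrays.

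A set of large falls lost the call when single arrays were left out, in part where the difference itself did not shrink. The AF067061 difference was -4.135 without KO replicate 1 and -2.775 without KO replicate 2, against -3.455 on all 4 arrays. AF067061, Gm20767 and BC080696 each lost the call without WT replicate 1 and without either KO array, AF067061 also without WT replicate 2. AF067061 read 3.92 and 2.56 in KO against 7.16 and 6.23 in WT. Tcstv1, a gene of the 2-cell embryo, behaved likewise at 3.27 and 2.44 in KO against 6.25 and 4.96 in WT. Each of these genes was higher on WT replicate 1 than on WT replicate 2. In AGP14 cells they also split, AF067061 reading 6.17 and 2.12. Obox6, an oocyte homeobox gene, was the reverse case, at 4.43 and 3.58 in KO against 6.65 and 8.97 in WT, and lost the call without WT replicate 2 (adjusted p = 0.0591 by limma). Of the 6 measured genes of the 2-cell-like list, Tcstv1 was called, and the list's median difference was -0.71.

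Among the rises, Nt5e led. It encodes CD73, the cell-surface enzyme that makes adenosine from AMP, and read 10.82 and 10.24 in KO against 5.83 and 6.30 in WT (4.46, SE 0.25, adjusted p = 1.86e-09 by limma). Trh, the precursor of thyrotropin-releasing hormone, read 11.28 and 11.94 in KO against 7.75 and 9.43 in WT (3.02). Myb, a transcription factor of blood progenitors, read 8.88 and 8.72 in KO against 6.59 and 5.60 in WT (2.71). These 3, like all of the largest rises named, were picked among genes without overlap between groups. Sgce, the paternally expressed sarcoglycan, and Naprt, an enzyme of NAD synthesis from nicotinic acid, rose with tight replicates. Sgce read 8.99 and 8.87 in KO against 6.38 and 6.16 in WT, and Naprt 8.34 and 8.67 in KO against 6.13 and 6.08 in WT.

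Further rises were Scn3a, a neuronal sodium channel (2.58), Nav2, a neuron navigator (2.37), Enox1 (2.24), Pglyrp1, a peptidoglycan recognition protein (2.23), and Adgrb2 (2.37), whose WT values were 2.49 and 0.39. Ces1f, a carboxylesterase, was listed at 0 on both WT arrays and read 2.41 and 2.93 in KO. Its call, and those of 2810471M01Rik, Cdx2 and Slc38a5, were lost when 1 array was left out. Cdx2, the trophoblast and posterior regulator, read 3.98 and 4.25 in KO against 0.44 and 3.10 in WT. Its call was lost without WT replicate 1, where the difference was 1.015, and without either KO array. With probe sets averaged the Cdx2 difference was 1.125 and was not called. Its other probe set differed by -0.10.

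**Figure D2:**
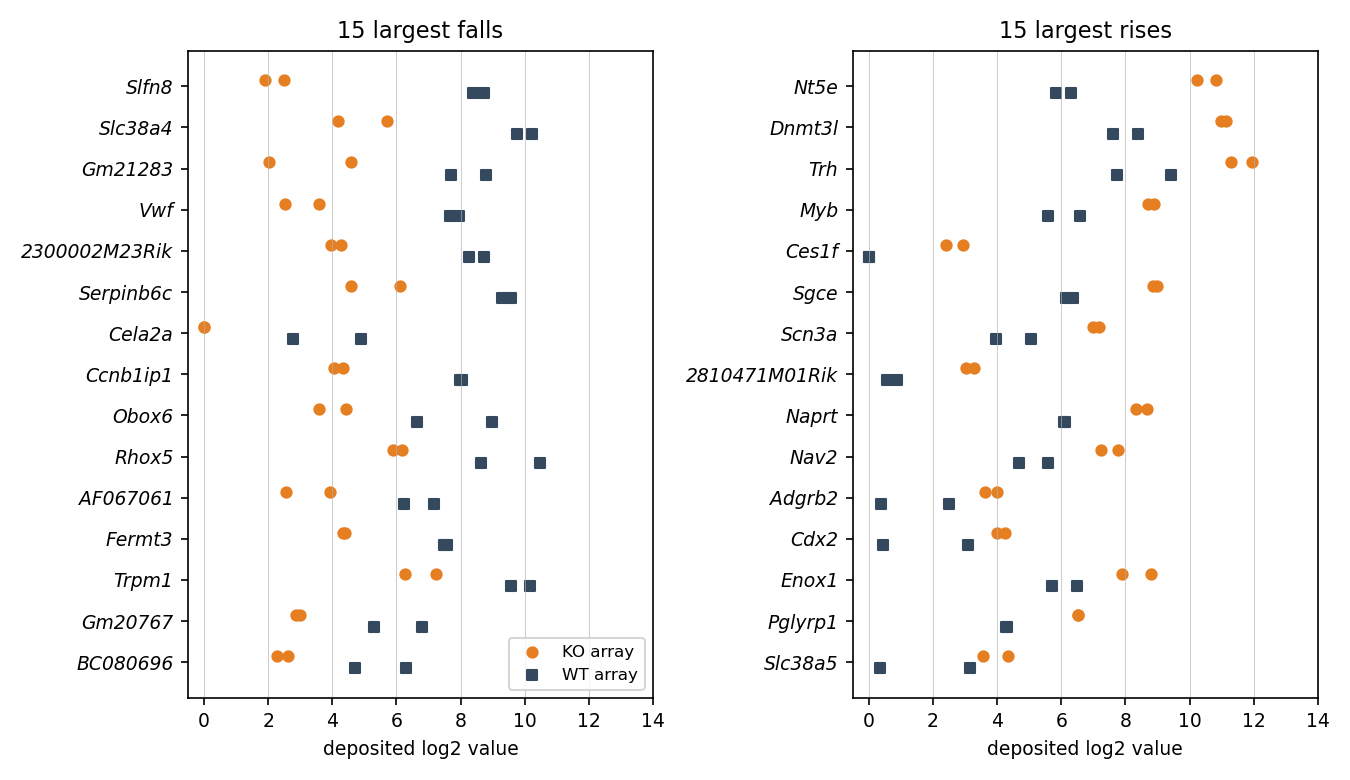
Deposited log2 values (x axis) on the 2 KO arrays (orange circles) and the 2 WT arrays (dark squares) in 2i for the 15 largest falls (left) and the 15 largest rises (right). Genes were picked among those with separate groups, so the separation is no result. The WT replicates lie far apart for Obox6, Cdx2 and Slc38a5.

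DNA methylation in mammals is laid down by Dnmt3a and Dnmt3b, with Dnmt3l as their cofactor, and copied at replication by Dnmt1 with Uhrf1. Of 12 measured genes of this machinery 3 rose and 1 fell, and the median difference was 0.22. Dnmt3l read 11.15 and 10.98 in KO against 7.60 and 8.39 in WT (3.07, SE 0.17, adjusted p = 1.86e-09 by limma). Dnmt3b read 11.66 and 11.13 in KO against 9.71 and 9.15 in WT (1.97, SE 0.25, adjusted p = 5.71e-05 by limma). Both KO values of each gene were above both WT values, which holds for every called rise. Dnmt3a did not pass, at 7.71 and 8.43 in KO against 7.30 and 6.79 in WT (1.02, SE 0.36, adjusted p = 0.0902 by limma).

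Setdb1, a histone H3 lysine 9 methyltransferase that silences retroelements, rose by a small and even amount, reading 9.04 and 9.16 in KO against 8.67 and 8.66 in WT (0.44). Dnmt1 fell, reading 10.95 and 10.75 in KO against 11.22 and 11.11 in WT (-0.32), and lost the call without KO replicate 2 (adjusted p = 0.207 by limma) or WT replicate 1 (0.181). Uhrf1 differed by -0.23 and did not pass. Of 9 measured genes of DNA demethylation 0 rose and 2 fell, Mbd4 (-0.49) and Apobec1 (-0.86). Neither fall kept its call without KO replicate 1, without KO replicate 2 or without WT replicate 1, nor with probe sets averaged. After quantile normalization 1 of the 9 rose and 1 fell. Tet1 read 11.61 and 11.79 in KO against 11.43 and 11.53 in WT and Tet2 10.04 and 9.94 in KO against 9.38 and 9.75 in WT, neither past the test.

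Germline genes such as Dazl carry CG-dense promoters that DNA methylation keeps silent in the soma. The 250 bases before the RefSeq start (GRCm38.p6) are printed for 3 germline genes that fell and for Dnmt3b, which rose. They run 5′ to 3′ on the gene's strand, with each CG in capitals. They lie at chr17:50293621-50293870 (- strand), chr3:95559427-95559676 (+ strand), chr3:55181794-55182043 (+ strand) and chr2:153649199-153649448 (+ strand), all upstream of the transcript. For Hormad1 the first of 2 listed windows is shown.
Dazl: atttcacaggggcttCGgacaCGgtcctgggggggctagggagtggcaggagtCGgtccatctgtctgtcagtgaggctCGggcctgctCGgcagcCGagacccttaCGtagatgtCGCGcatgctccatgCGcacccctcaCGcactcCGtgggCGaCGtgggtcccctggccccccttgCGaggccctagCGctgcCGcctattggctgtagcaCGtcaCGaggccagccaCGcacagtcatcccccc
Hormad1: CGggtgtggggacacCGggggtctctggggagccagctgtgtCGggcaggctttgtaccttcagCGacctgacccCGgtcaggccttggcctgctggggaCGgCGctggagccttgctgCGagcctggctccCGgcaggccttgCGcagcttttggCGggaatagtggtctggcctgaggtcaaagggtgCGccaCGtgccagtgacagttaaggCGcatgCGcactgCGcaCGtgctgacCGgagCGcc
Sohlh2: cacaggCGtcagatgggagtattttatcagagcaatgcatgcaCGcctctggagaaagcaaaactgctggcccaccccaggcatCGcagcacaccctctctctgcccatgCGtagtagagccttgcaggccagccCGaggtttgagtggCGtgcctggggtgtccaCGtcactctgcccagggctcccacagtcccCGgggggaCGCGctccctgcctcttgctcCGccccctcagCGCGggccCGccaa
Dnmt3b: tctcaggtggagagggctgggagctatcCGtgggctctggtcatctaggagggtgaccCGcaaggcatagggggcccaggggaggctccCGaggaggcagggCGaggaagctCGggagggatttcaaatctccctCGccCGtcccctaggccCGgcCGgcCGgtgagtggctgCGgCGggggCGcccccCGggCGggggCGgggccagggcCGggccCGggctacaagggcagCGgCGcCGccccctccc

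The Dazl window holds 20 CGs, the Hormad1 window 19, the Sohlh2 window 14 and the Dnmt3b window 21. Over the 14452 measured genes with a window, the median was 13 CGs (quartiles 5 and 21). The printed windows all lie within these quartiles. The 22 germline list genes with a window had a median of 15, the 539 genes that rose 17 and the 836 that fell 15. The letters CACGTG, their own reverse complement, occurred in 11 of the 22 germline windows (50.0%) and in 7.56% of all windows. The letters TCCCGC, searched on both strands, occurred in 6 of the 22 (27.3%) and in 25% of all windows. Hormad1 holds both motifs, and neither Dazl nor Sohlh2 holds either in this window. The window of Slc25a31, another germline gene that fell, is not printed. It holds 18 CGs and CACGTG but not TCCCGC. Of the 4 fallen germline genes with a window, 2 hold CACGTG.

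Of the 25 measured germline genes of this kind, 5 fell and 0 rose, with a median difference of -0.66. The RNA-binding protein gene Dazl read 5.33 and 5.56 in KO against 8.29 and 7.39 in WT (-2.39, SE 0.27, adjusted p = 2.06e-05 by limma). Hormad1, a protein of the meiotic chromosome axis, read 5.89 and 5.31 in KO against 8.76 and 8.01 in WT (-2.78, SE 0.33, adjusted p = 2.53e-05 by limma). Sohlh2, a germ cell transcription factor, read 5.68 and 6.32 in KO against 9.48 and 8.32 in WT (-2.90, SE 0.34, adjusted p = 2.53e-05 by limma). In each of these 3 the WT replicate 1 level was above that of WT replicate 2. Slc25a31, the testis ADP/ATP carrier, read 1.88 and 2.50 in KO against 4.56 and 3.65 in WT, and Piwil2, a piRNA-binding protein, 5.67 and 5.70 in KO against 6.67 and 6.23 in WT. Without WT replicate 1 neither passed (adjusted p = 0.0727 and 0.2 by limma), and 3 of the list fell; the count was 8 without KO replicate 2 and 9 without WT replicate 2. Rhox5 and Rhox13 were the 2 of 10 measured Rhox and X-linked reproductive genes that fell. Rhox13 lost the call without KO replicate 1 or WT replicate 1.

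Of 21 measured maternally expressed genes 3 rose and 1 fell, and of 25 paternally expressed genes 1 rose and 1 fell. Over all genes 3.63% rose and 5.52% fell, and the paternal counts lie near these shares. Meg3, a long noncoding RNA of the Dlk1 locus, read 11.99 and 12.25 in KO against 11.27 and 11.46 in WT (0.76). Mirg, a microRNA host transcript of the same locus, read 8.45 and 8.65 in KO against 6.84 and 7.24 in WT (1.51). Ppp1r9a, a neighbour of Sgce, rose by 0.72 and lost the call without WT replicate 1 (adjusted p = 0.0787 by limma). Igf2r fell by 0.54 and lost it without KO replicate 1 or WT replicate 1. Sgce and Slc38a4 made up the paternal calls.

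FGF signalling runs from ligands such as Fgf4 through receptors and heparan sulfate co-receptors to ERK. Of 12 measured ligands and receptors, with a median difference of -0.295 against -0.03 over all genes, only Fgfr1 was called. It rose, reading 9.36 and 9.31 in KO against 8.02 and 7.75 in WT (1.45, SE 0.12, adjusted p = 2.91e-07 by limma). Fgf4 (0.18) and Fgfr2 (0.20) did not pass. Of 22 genes of heparan sulfate synthesis and proteoglycans 3 rose and 0 fell. The sulfotransferase gene Hs6st2 read 9.12 and 9.09 in KO against 7.36 and 7.26 in WT (1.79, SE 0.17, adjusted p = 2.03e-06 by limma), and was the only one of the 3 to pass without KO replicate 1, KO replicate 2 or WT replicate 1. The others were Hs2st1 (0.47) and the glypican Gpc4 (0.94).

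Genes that ERK signalling induces, among them its feedback inhibitors, stood at 5 risen and 0 fallen of 22, with a median difference of 0.25. The inhibitor Spry2 read 11.55 and 11.48 in KO against 10.12 and 10.44 in WT (1.24, SE 0.10, adjusted p = 2.91e-07 by limma). Spred1, another Sprouty-related inhibitor, read 8.64 and 8.32 in KO against 7.63 and 7.79 in WT (0.77). The growth regulator Myc read 6.07 and 5.67 in KO against 4.47 and 4.97 in WT (1.15). These 3 held with any 1 array left out. Spry4 (1.70) lost its call without KO replicate 1 or WT replicate 1, and the phosphatase gene Dusp5 (0.94) without KO replicate 2 or WT replicate 2. The ERK phosphatase gene Dusp6 read 8.49 and 8.06 in KO against 8.03 and 8.09 in WT and did not pass (0.22, adjusted p = 0.275 by limma).

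LIF acts through STAT3, which induces Socs3, Pim1 and Bcl3 among others. Of 17 measured genes of this response 3 fell and 1 rose. Pim1, a survival kinase, read 9.24 and 8.60 in KO against 10.67 and 10.75 in WT (-1.79, SE 0.13, adjusted p = 1.07e-07 by limma). Bcl3, an NF-kappa-B co-regulator, read 6.05 and 6.63 in KO against 8.15 and 8.19 in WT (-1.83, SE 0.21, adjusted p = 2.26e-05 by limma). Both were lower on each KO array than on each WT array, which holds for every called fall. Pim3 fell (-1.01) and lost the call without KO replicate 1 or WT replicate 2. Socs3, the feedback inhibitor on chromosome 11, rose (0.66) and lost it without KO replicate 2, WT replicate 1 or WT replicate 2. Stat3 (-0.20) and Lifr (0.11) did not pass.

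In the NODAL and activin pathway 3 of 12 rose and 0 fell. Foxh1, the partner of SMAD2, read 8.54 and 8.57 in KO against 7.35 and 7.31 in WT (1.23, SE 0.10, adjusted p = 6.03e-07 by limma). Lefty1 (0.99), a NODAL inhibitor, and the co-receptor gene Tdgf1 (0.20) rose too, the count being 1 without KO replicate 2, when both lost their calls. Of 20 genes of the WNT and beta-catenin response 3 rose and 0 fell, among them Tcf7l1 (0.50), a repressor of naive genes that blocking GSK3 relieves, and Wnt8a (1.07). That count was 0 without KO replicate 1 or WT replicate 1 and 1 without KO replicate 2.

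ATF4 drives genes of amino acid supply and the integrated stress response when amino acids are short. Of 24 such genes 10 fell and 0 rose, and the median difference was -0.34. That was the largest called share of the 38 lists (the plot of gene lists). Lists and members were chosen with earlier results of these data known, so this rank is a description only. With MEK inhibitor 1 member fell and 1 rose (median -0.062), while 5 fell in serum with LIF and 6 without LIF. Psat1, Phgdh and Psph, the enzymes of serine synthesis, fell together by about 0.5 log2 units. Psat1 read 11.46 and 11.60 in KO against 12.05 and 12.11 in WT (-0.55, SE 0.07, adjusted p = 8e-05 by limma). Phgdh read 10.73 and 10.81 in KO against 11.27 and 11.21 in WT (-0.47), and Psph 10.18 and 10.12 in KO against 10.61 and 10.79 in WT (-0.55). The KO and WT values of the 3 lay apart, as for every called gene, by small margins.

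Nupr1, a stress-induced chromatin protein, fell most in that list, reading 10.24 and 10.35 in KO against 11.64 and 11.38 in WT (-1.22, SE 0.18, adjusted p = 0.000215 by limma). Mthfd2, of mitochondrial folate metabolism (-0.87), Slc7a5, the large neutral amino acid transporter (-0.49), and Cars, the cysteinyl-tRNA synthetase (-0.48), fell as well, Cars not with probe sets averaged. Aars (-0.38), Trib3 (-0.85) and Atf3 (-0.68) fell but lost the call without KO replicate 1 (adjusted p = 0.0868, 0.11 and 0.386 by limma). Between 8 and 11 of the list fell with any 1 array left out. None of its members lie on chromosomes 11 or 16.

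Energy metabolism was mixed. Of 18 measured glycolysis genes 2 rose and 4 fell. Pdk1, the kinase that closes pyruvate dehydrogenase, read 10.68 and 10.98 in KO against 8.90 and 9.32 in WT (1.72, SE 0.14, adjusted p = 2.13e-07 by limma). Pfkp, a phosphofructokinase, read 10.60 and 10.31 in KO against 10.96 and 11.23 in WT (-0.64). Both held with any 1 array left out, Pfkp not with probe sets averaged, while Pfkl, Hk2, Ldhb and Aldoc did not. Of 19 cholesterol synthesis genes 4 fell (Fdft1, Mvd, Nsdhl and Pmvk, by 0.28 to 0.57), and of 23 oxidative phosphorylation genes 3 fell (by 0.20 to 0.33). Both counts were 0 without KO replicate 1 or WT replicate 1.

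The core of the pluripotency network was near level between the genotypes in 2i. Nanog read 12.65 and 12.73 in KO against 12.70 and 12.65 in WT, Pou5f1 12.74 and 12.72 in KO against 12.53 and 12.64 in WT, and Sox2 12.79 and 12.66 in KO against 12.80 and 12.75 in WT. These did not pass, nor did Klf4 (0.15), Esrrb (-0.09) and Zfp42 (0.09). Of 24 measured naive genes 1 rose, Prdm14 itself, and 2 fell, near the shares of all genes (3.63% and 5.52%). Klf5, a naive transcription factor, read 10.78 and 10.74 in KO against 11.68 and 11.74 in WT (-0.95, SE 0.11, adjusted p = 2.71e-05 by limma), although its other probe sets differed by -0.46 to 0.31. Tcl1, a co-activator of AKT, read 10.25 and 9.92 in KO against 11.31 and 11.70 in WT (-1.42). The core gene Utf1, a chromatin protein of stem cells, rose by 0.74, with other probe sets between -0.97 and 1.3. With probe sets averaged the differences were -0.37 for Klf5 and 0.36 for Utf1, neither called.

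Among polycomb genes 2 of 24 rose and 3 fell, against 3.63% and 5.52% of all genes. Ezh2, the methyltransferase of polycomb complex 2, read 10.42 and 10.46 in KO against 10.92 and 10.84 in WT (-0.44). The complex 2 members Rbbp7 (0.42) and Jarid2 (0.56) rose. Phc1 and Cbx2, of polycomb complex 1, fell and lost their calls without WT replicate 1. Kit, the receptor of migrating germ cells, read 8.88 and 9.16 in KO against 9.98 and 10.38 in WT (-1.16).

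Of 20 junction and epithelial genes 4 rose and 1 fell, with a median difference of 0.25. Gja1, the gap junction protein connexin 43, read 12.53 and 12.62 in KO against 11.19 and 10.28 in WT (1.84, SE 0.22, adjusted p = 2.65e-05 by limma). Cldn4, a tight junction claudin, read 11.22 and 11.44 in KO against 10.72 and 10.63 in WT (0.66). Epcam and Esrp1 rose and lost the call without KO replicate 2 or WT replicate 2, Epcam also without KO replicate 1, and Ocln fell, a call lost without KO replicate 1 or WT replicate 1. Cdh1, E-cadherin, differed by 0.06 and did not pass. Of 20 matrix and basement membrane genes 2 rose and 1 fell: the laminin chain gene Lama5 (1.22), the integrin gene Itgb1 (0.51), and Lama1, which read 4.84 and 6.11 in KO against 7.95 and 8.27 in WT (-2.63). With probe sets averaged the differences were 0.79 for Lama5 and 0.083 for Itgb1, neither called. Of 29 feeder genes 0 rose and 1 fell. Over all genes 3.63% rose and 5.52% fell.

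**Figure D3:**
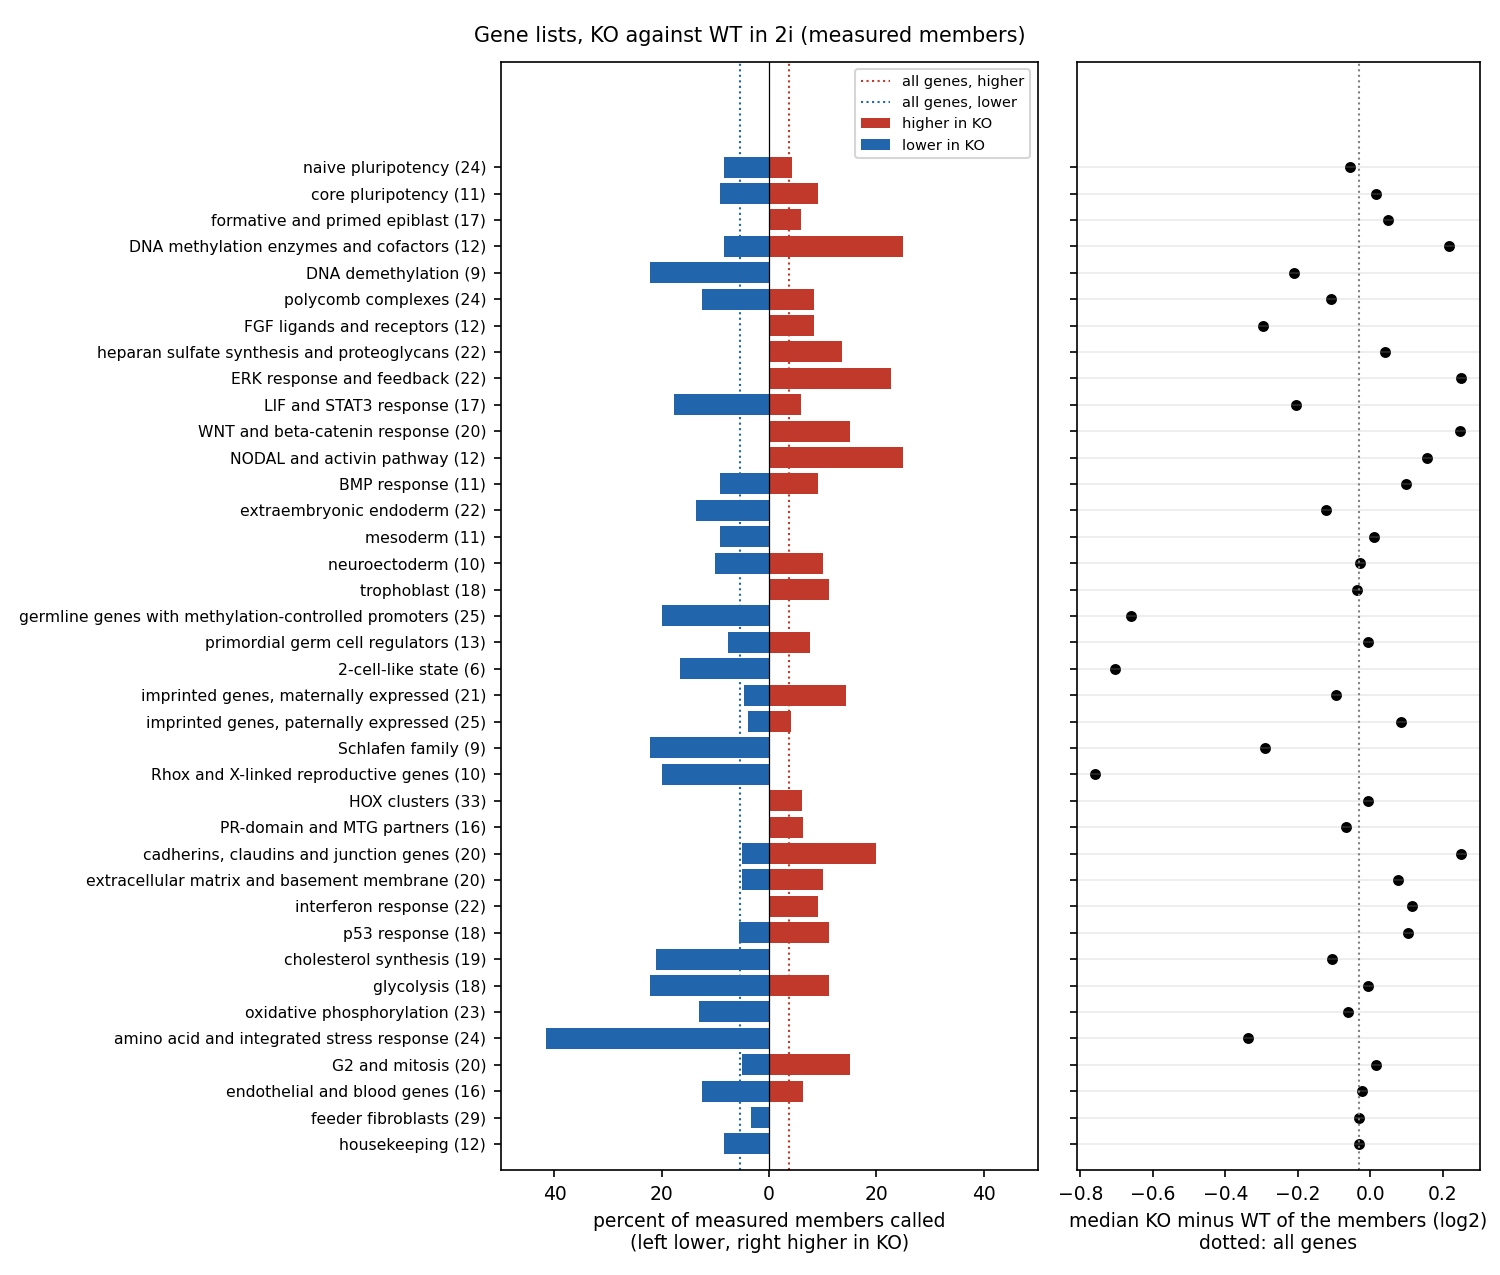
Left, percent of the measured members of each of 38 gene lists (number measured in brackets) called higher in KO (red, to the right) and lower in KO (blue, to the left), with dotted lines at 3.63% and 5.52% for all genes. Right, the median KO minus WT difference of the members (log2), with a dotted line at -0.03 for all genes. The amino acid and integrated stress response list shows the longest blue bar, 10 of 24. Lists were chosen with earlier results of these data known.

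Whether the genotype differences of 2i were the same in the serum media was tested as a difference of differences, 2i minus the other medium. Between 2i and serum with MEK inhibitor 11 genes were called (0.0605%), between 2i and serum with LIF 541 (2.97%), and between 2i and serum without LIF 589 (3.24%). At an unadjusted p under 0.05 there were 1303, 2840 and 2787. The spike-in sets coincide with the media here: 2i and MEK inhibitor arrays read 13.4 to 13.6 for lys and the serum and no-LIF arrays about 7, each genotype difference lying within 1 set. The part of the sets in these counts was not tested. Models of only the 8 arrays compared called 0, 15 and 18. A fit that blocks on replicate within genotype, since arrays of 1 line and number deviated together, called 204, 1708 and 1805.

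Of the 661 genes that rose in 2i, 202 also rose with MEK inhibitor (30.6% of the 2i rises and 59.8% of the rises there), 49 in serum with LIF (7.41% and 19.4%) and 60 without LIF (9.08% and 18.8%). Of the 1004 that fell, 283 also fell with MEK inhibitor (28.2% of the 2i falls and 70.0% of the falls there), 173 in serum (17.2% and 34.1%) and 151 without LIF (15% and 34.0%). Over all genes, 1.86% rose and 2.22% fell with MEK inhibitor, 1.39% and 2.79% in serum, and 1.75% and 2.44% without LIF. Genes called in opposite directions in 2i and the other medium numbered 0, 17 and 30. Arrays of the same line and number deviated together across media, so the media are not independent of one another. WT replicate 1 was also shifted on chromosomes 11 and 16 in every medium. The shared calls were not counted without WT replicate 1 or without these chromosomes. Of the 15 largest rises in 2i, 7 also rose with MEK inhibitor and 0 in serum or without LIF, and the difference of differences was called for 11 of them in each of these serum media. Of the 15 largest falls, 10, 9 and 8 also fell in those 3 media, and 0, 4 and 3 had a called difference of differences. Both sets were picked by their differences on the same 2i arrays that enter the difference of differences. That choice favours larger differences in 2i than elsewhere, so these counts are a description and no test.

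Nt5e and Dnmt3l were among these largest rises. Nt5e in serum read 8.71 and 8.21 in KO against 8.37 and 8.64 in WT, and with MEK inhibitor 8.83 and 8.11 in KO against 5.56 and 5.69 in WT. Its difference in 2i exceeded that in serum by 4.51 (SE 0.35, adjusted p = 1.55e-06 by limma). WT cells were low in the media with MEK inhibitor and near the KO level in serum. Dnmt3l in serum read 11.67 and 11.62 in KO against 11.68 on both WT arrays, and with MEK inhibitor 11.89 and 11.72 in KO against 10.45 and 10.87 in WT. Its difference in 2i exceeded that with MEK inhibitor by 1.93 (adjusted p = 0.00244 by limma). Dnmt3b in serum read 13.06 and 13.01 in KO against 12.93 and 12.71 in WT, and its difference in 2i exceeded that by 1.75 (adjusted p = 0.0128 by limma). Gja1, Pdk1, Naprt, Sgce, Hs6st2, Foxh1 and Myb likewise had larger differences in 2i than in serum and than without LIF.

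Some of the largest falls were called in all 4 media. Slfn8 in serum read 2.20 and 2.55 in KO against 6.33 and 6.60 in WT, and Ccnb1ip1 4.17 and 4.29 in KO against 8.37 and 8.44 in WT. Slc38a4, Rhox5, Serpinb6c and Gm21283 also fell in each of them. The STAT3 target Pim1 differed by -1.79 in 2i, -0.72 with MEK inhibitor, 0.31 in serum and 0.49 without LIF, and its difference in 2i was below that of each other medium (adjusted p = 0.0401, 4.88e-06 and 1.63e-06 by limma). Slain1, a microtubule plus-end protein, and Plekhg1 also had differences in 2i below those of each other medium. Of the 24 naive genes 2 fell in 2i, against 9 in serum and 11 in the medium without LIF, and 3 and 7 had a called difference of differences, higher in 2i than in serum and than without LIF. Of 19 cholesterol genes 4 fell in 2i while 5 rose in serum and 6 without LIF, and 7 and 4 had a difference in 2i below that of the other medium.

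**Figure D4:**
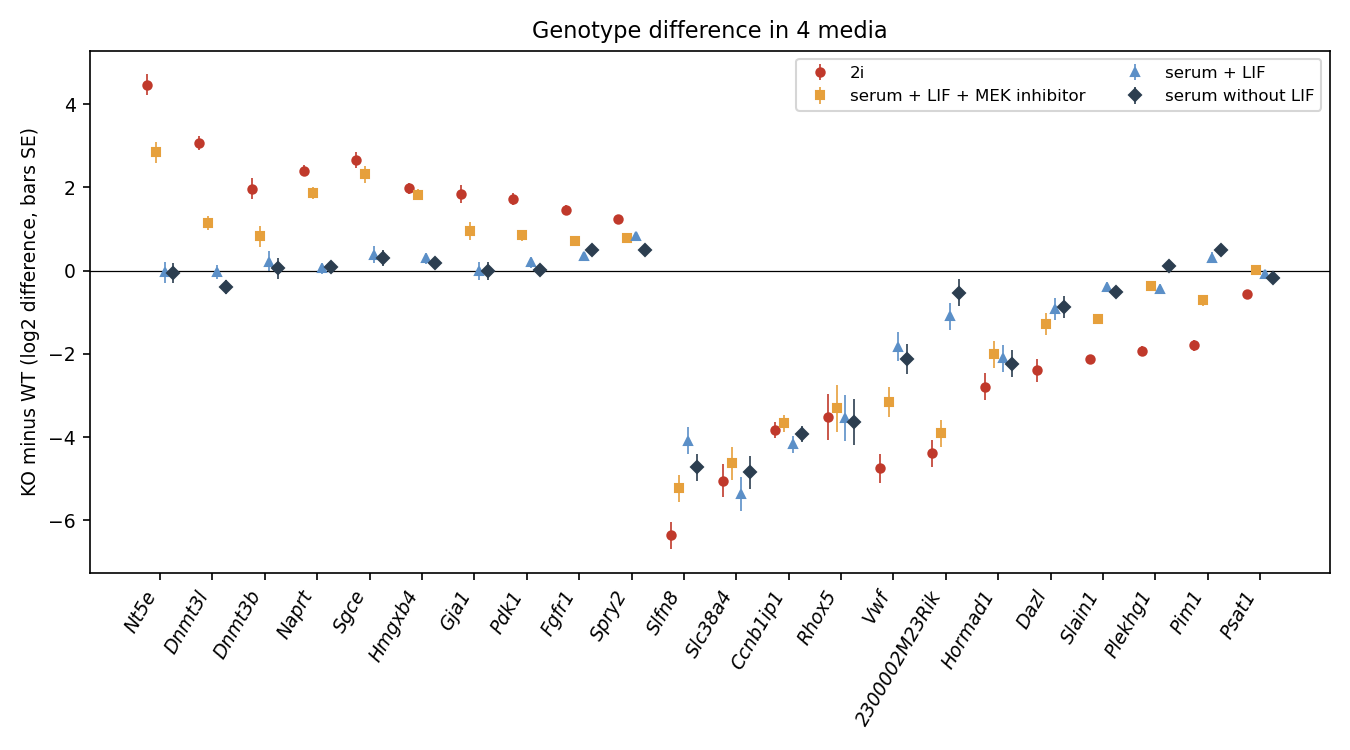
KO minus WT difference (y axis, log2, bars the SE of the difference) for 22 genes in 2i (red circles), serum with LIF and MEK inhibitor (orange squares), serum with LIF (blue triangles) and serum without LIF (dark diamonds), from 2 KO and 2 WT arrays in each medium. Nt5e lies at 4.46 in 2i and at -0.05 in serum, while Slc38a4, Ccnb1ip1 and Rhox5 lie low in all 4 media.

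AGP14 cells, knockout cells with the transgene, gave a further level in 2i, on arrays of the other spike-in set. AGP14 minus KO called 4401 genes (24.2%), 1495 higher and 2906 lower, and this comparison uses the same KO arrays as KO minus WT. The rising share was 34.0% as deposited and 49.9% after quantile normalization. Pim1 read 10.58 and 10.44 in AGP14, 9.24 and 8.60 in KO and 10.67 and 10.75 in WT. Rhox5 at 10.90 and 10.40 and Slc38a4 at 8.54 and 9.23 in AGP14 cells were above both KO values. Nt5e read 9.29 and 9.10 and Dnmt3l 9.93 and 9.72 in AGP14 cells, between the KO and WT values. Slfn8 at 1.80 and 1.75 and Ccnb1ip1 at 4.45 and 4.21 were near the KO values, and Dnmt3b at 11.26 and 11.17 too.

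Calls were also counted by chromosome. On chromosome 11, 105 of 1443 genes fell (7.28%) and 16 rose (1.11%). On chromosome 16, 39 of 593 fell (6.58%) and 5 rose (0.843%). The falling share was higher still on chromosome 12 (7.56%), and on the other 18 chromosomes the rising share was at least 1.81%. Among genes with a mean level of at least 6, the median difference was -0.18 on chromosome 11 and -0.24 on chromosome 16, against -0.04 to 0.06 on the other 18 chromosomes, and with each chromosome cut into 4 stretches of equal gene number it lay between -0.31 and -0.16 in all of them. Among the 2i arrays the shift came with WT replicate 1, and the WT replicate 1 arrays of the other media had it too. Against WT replicate 1 the medians of KO replicates 1 and 2 were -0.32 and -0.32 on chromosome 11 and -0.42 and -0.43 on chromosome 16, and against WT replicate 2 they were -0.02 and -0.03, and -0.06 and -0.05. Without WT replicate 1, 32 genes of chromosome 11 (2.22%) and 10 of chromosome 16 (1.69%) fell, against 2.21% of all genes. With the 2036 genes of these chromosomes left out, 640 rose and 860 fell. DNA copy number was not tested.

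**Figure D5:**
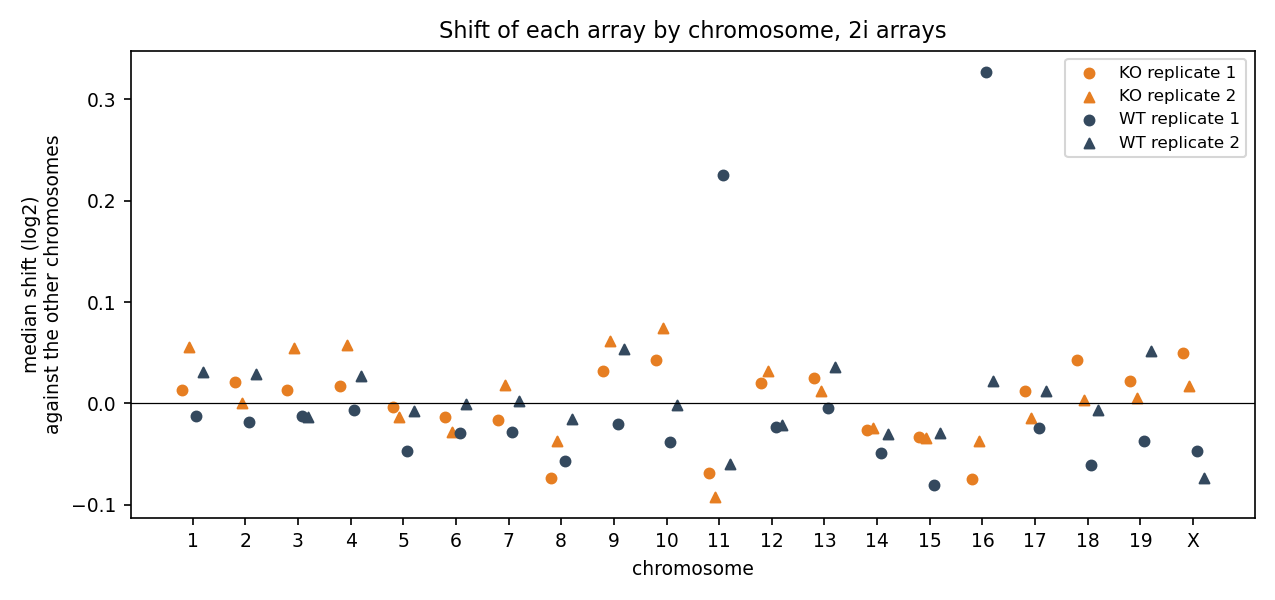
Shift of each of the 4 2i arrays by chromosome (y axis, log2: median over genes of the level minus the gene's mean over 26 arrays, less the same on the other chromosomes; x axis, chromosome). KO arrays are orange, WT arrays dark, replicate 1 circles and replicate 2 triangles; WT replicate 1 lies at 0.225 on chromosome 11 and 0.327 on chromosome 16, and the arrays lie between -0.081 and 0.074 on the other 18 chromosomes.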

How the data were processed

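Total RNA was purified with RNeasy Micro kits and labelled by Affymetrix's one-cycle method, per the labels' protocols. The deposited table gives a log2-scale value for each probe set on each array. The base is inferred from the highest value, 13.89; how background was corrected and arrays normalized was not given in the sources used here. Of 45100 probe sets, 34944 had 1 gene symbol in the platform annotation, and 932 with several symbols and 9160 without were not used. Each of 18193 genes took its probe set with the highest mean over the 26 arrays.

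A group means model of all 13 groups was fitted with limma 3.58.1 in R 4.3.3 (eBayes with an intensity trend, 13 residual degrees of freedom), two-sided with Benjamini-Hochberg adjustment over all genes and a threshold of 0.05. The number of arrays limits the precision. Simulated data with known changes returned 25 of 67 genes changed 1.5-fold, 42 of 67 changed 2-fold and 60 of 66 changed 4-fold. In them 5 unchanged genes were called. The simulated noise was independent between arrays, unlike the deviations that arrays of the same line and number shared. These numbers therefore do not give the recovery or the false calls in the real data. Named were the 15 largest rises and the 15 largest falls among called genes whose KO and WT arrays did not overlap. Also named were called list members, up to the 8 with the smallest p in a list, and 6 genes per direction of each interaction. Members and lists were chosen with earlier results of these data known. Replicate numbers did not pair KO with WT arrays (correlation of deviations -0.044). Promoter windows come from RefSeq (GRCm38.p6). Figures used matplotlib 3.10.9.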

Additional observations from a re-analysis of the deposited data

Results flagged for a closer look

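The following genes had a KO minus WT difference in 2i that differed from the one in another medium by limma's interaction test, given as the difference in 2i minus that in the other medium (log2). Against serum with MEK inhibitor the values were 1.93 for Dnmt3l, 0.61 for Lgr4, 1.74 for Pga5, -1.58 for Plekhg1, -1.45 for Fam178b, -0.90 for Ddit4, -0.98 for Slain1, -0.71 for Gpt2 and -1.08 for Pim1. For Pga5 and Ddit4 the difference in 2i itself did not pass (-0.69 and -0.14), and the values with MEK inhibitor were -2.43 and 0.76.

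Against serum with LIF they were 4.51 for Nt5e, 3.11 for Dnmt3l, 2.34 for Naprt, 1.68 for Hmgxb4, 1.73 for Pla1a, 1.31 for Foxh1, -1.74 for Slain1, -2.10 for Pim1, -1.54 for Fhl1, -1.49 for Plekhg1, -1.72 for Fxyd6 and -1.35 for 2210408K08Rik. Pla1a did not pass in 2i (-0.40) and stood at -2.13 in serum. Fhl1, a LIM-domain protein on the X chromosome, fell in 2i (-1.0) and rose in serum (0.54).

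Against serum without LIF they were 3.47 for Dnmt3l, 4.52 for Nt5e, 2.31 for Naprt, 1.78 for Hmgxb4, 1.32 for Ddhd2, 1.70 for Pdk1, -2.28 for Pim1, -2.04 for Plekhg1, -1.63 for Slain1, -1.68 for Fhl1, -1.83 for Fxyd6 and -0.91 for Tspan13. Ddhd2 did not pass in 2i (0.23) and stood at -1.09 without LIF.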

How the results depend on the processing

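The number of genes called between KO and WT in 2i was within 1.5 times the reported 1665 after quantile normalization (1711), with probe sets of a gene averaged (1136), without the intensity trend (1333) and with dim genes left out (1855). It was 25 with only the 4 arrays compared, and 727 to 1830 with 1 array left out. The test of 2i against serum (541) gave 301 with probe sets averaged, 325 without the trend, 15 with only the arrays compared, and 224 to 542 with 1 array left out. Against serum without LIF (589) these counts were 336, 365, 18 and 325 to 598, and against MEK inhibitor (11) they were 6, 6, 0 (821 at an unadjusted p under 0.05) and 4 to 35. AGP14 minus KO (4401) gave 2858 to 3476 with 1 array left out. The smaller models hold fewer arrays; otherwise the cause was not tested. Of 139 called named genes, 134 kept the call after quantile normalization, 112 with probe sets averaged, 116 without the trend and 16 with only the 4 arrays; 67 lost it without at least 1 array. Cox5b reversed with its probe sets averaged (0.049 against -0.20). Of the 139, 11 have a further probe set of opposite sign.

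With the replicate number as a block the counts were 1958 for KO minus WT in 2i, 698, 729 and 9 for the 3 tests between media, and 4731 for AGP14 minus KO; the numbers do not pair KO with WT arrays. A replicate block within genotype, chosen after seeing that arrays of 1 line and number deviate together, gave 1708 for serum, 1805 without LIF and 204 for MEK inhibitor, and kept all of the 541, 589 and 11.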

Other observations

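Single members of other gene lists changed in 2i, where 3.63% of all genes rose and 5.52% fell. Sox11, a transcription factor of neural progenitors, read 9.31 and 9.09 in KO against 8.02 and 6.60 in WT (1.89, adjusted p = 0.00175 by limma). It was 1 of 10 measured neuroectoderm genes to rise, and Tubb3 (-1.14) was the 1 that fell, a call lost without KO replicate 1 or WT replicate 1. Of 22 interferon response genes 2 rose and 0 fell. The antiviral membrane protein gene Bst2 read 11.40 and 11.12 in KO against 10.42 and 10.77 in WT (0.67), and Ddx58 (0.57), a sensor of viral RNA, lost its call without KO replicate 1 or WT replicate 1. The difference of Ddx58 was -0.76 in serum, and its 2i and serum differences differed (adjusted p = 0.00215 by limma).

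Of 18 p53 response genes 2 rose and 1 fell. Aen, an apoptosis-enhancing nuclease, read 7.32 and 8.23 in KO against 9.49 and 9.17 in WT (-1.55, adjusted p = 0.00157 by limma), and Pmaip1 rose by 0.92, a call lost without KO replicate 1 or WT replicate 1. Of 20 genes of G2 and mitosis 3 rose by 0.20 to 0.29 (Cdc20, Ube2c and Kif11), and Aurkb of chromosome 11 fell by 0.58. All 4 lost their calls without WT replicate 1. Of 16 endothelial and blood genes, Vwf and Tek (-1.88) fell and Gata1 (0.83) rose. The calls of Tek and Gata1 were lost without KO replicate 1 or WT replicate 1.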
